A study of Mus musculus with 12 samples.

Results

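Neuronal intermediate progenitors (nIPCs) stand between the radial glia-like stem cells (RGLs) of the dentate gyrus and the neuroblasts that become granule neurons. They carry *Eomes*, which encodes the T-box factor Tbr2, together with proneural genes such as *Neurog2*, and they divide a limited number of times before they leave the cell cycle. In the mouse dentate gyrus the first postnatal weeks are the main period in which these divisions supply granule neurons. The cells described here are dividing nIPCs at P7. They were selected on their own transcripts: at least 1 *Eomes* UMI (unique molecular identifier, a counted RNA molecule), at least 2 of 6 nIPC genes (*Neurog2*, *Mfap4*, *Neurod4*, *Mfng*, *Insm1* and *Dll3*) and at least 3 of 8 cell cycle genes (*Mki67*, *Top2a*, *Cenpf*, *Cenpa*, *Ube2c*, *Birc5*, *Cdk1* and *Rrm2*). They numbered 1561 of 24213 cells that passed the filter in 3 libraries, and where levels of those 15 genes are given below they describe the choice and are not a result.

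The libraries came from dentate gyri of P7 mice, with 3 to 4 gyri of littermates pooled into 1 library per genotype. The wild-type animals were *Larp7*-floxed mice without Cre. In *Larp7* f/f;nestin-Cre mice the driver acts in the developing central nervous system, and in *Larp7* f/f;Emx1-Cre mice it acts in dorsal forebrain progenitors, and in both exon 9 of *Larp7* is deleted. For both mutant libraries the genotype entry of the sample names the other driver than the title does. The titles were followed here. The number of nestin-Cre cells that the study states is above the barcodes of the library titled Emx1-Cre and below those of the library titled nestin-Cre, so the barcode counts run as the titles do, while no transcript measured below tells the drivers apart. With 1 library per genotype there is no replicate and no test: intervals in brackets are 95% intervals, exact binomial for shares, exact Poisson for summed UMIs and from order statistics for medians, which allow for counting error only. Both mutant libraries are compared with the same wild-type library, so their values are set side by side and are not independent.

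The wild-type, nestin-Cre and Emx1-Cre libraries held 28918491, 26689878 and 28537738 UMIs over 12876, 7177 and 6821 barcodes. Each pair of libraries shared few barcodes (23, 19 and 11). The filter of the study's methods, more than 500 genes and under 15% mitochondrial UMIs, left 10997, 6685 and 6531 cells, fewer in each library than the cells the study states, while the barcodes outnumber them. Passing cells had a median of 1782 UMIs in the wild-type library, 3644 in the nestin-Cre library and 3873 in the Emx1-Cre library. The wild-type cells were thus the shallowest, and a gate that asks for detected genes takes a larger share of deeper cells.

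Dividing nIPCs made up 4.79% [4.40 to 5.21] of passing wild-type cells (527 cells), 6.13% [5.57 to 6.74] of *Larp7* f/f;nestin-Cre cells (410 cells) and 9.55% [8.85 to 10.3] of *Larp7* f/f;Emx1-Cre cells (624 cells). The order did not hold at equal depth or with a stricter filter. When every cell was thinned to 1500 UMIs before the gate was applied, the shares were 1.63%, 1.41% and 1.76%, from 101, 86 and 107 cells. This left out 4785, 597 and 439 shallower cells, and their loss was not separated from the thinning. With more than 1000 genes per cell and no thinning, the shares were 8.65%, 6.97% and 10.3%, so wild-type lay above nestin-Cre. Among cells that passed the *Eomes* and nIPC gates, the cycle gate took 46.5% [43.6 to 49.5] in the wild-type, 38.7% [35.7 to 41.7] in the nestin-Cre and 46.1% [43.4 to 48.7] in the Emx1-Cre library. Within this denominator the wild-type and Emx1-Cre shares lay within each other's intervals and the nestin-Cre share was the lowest.

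**Figure D1:**
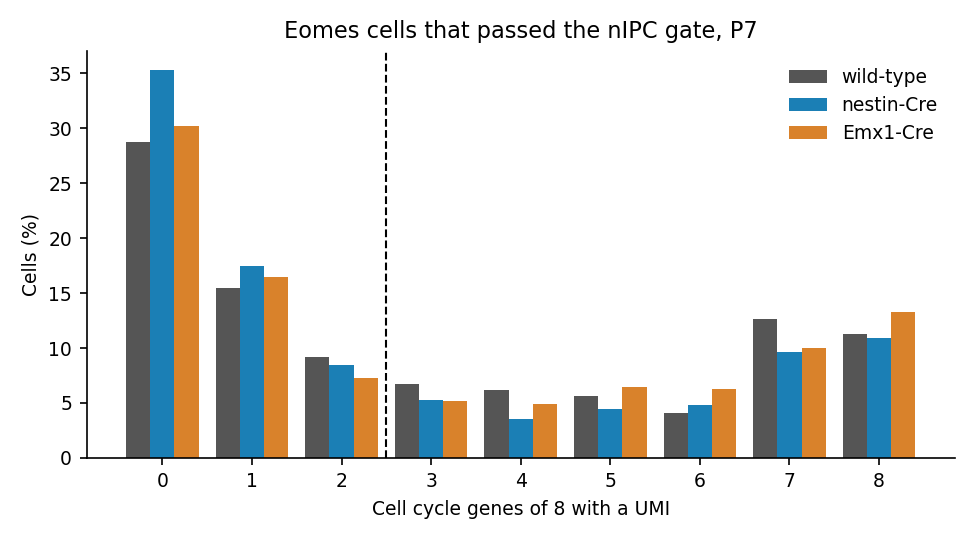
Share of *Eomes* cells that passed the nIPC gate (%, vertical axis) by the number of the 8 cell cycle genes with a UMI (horizontal axis) in each library; cells to the right of the dashed line are the dividing nIPCs. Each library has many cells with 0 cycle genes (28.8%, 35.3% and 30.2%), and fewer at each number from 3 to 6 than at 7 or at 8.

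The number of cycle genes per cell had a peak at 0 and another at 7 to 8. Members with at least 7 of the 8 cycle genes were 51.4% [47.1 to 55.8] of wild-type members, 53.2% [48.2 to 58.1] of nestin-Cre members and 50.5% [46.5 to 54.5] of Emx1-Cre members. Cells just inside the threshold, with exactly 3 cycle genes, numbered 76, 56 and 70, and cells just outside it, with 2, numbered 104, 90 and 99. Their transcripts differed by degrees across the limit. In the wild-type library, *Hmgb2*, a chromatin protein of dividing cells that the gate did not use, was at 537 CPM (UMIs of the gene per 1000000 UMIs) with 2 cycle genes, at 1159 with 3 and at 3394 with 8, while *Tubb3*, a neuronal tubulin, was at 1185 with none, at 379.6 with 2 and at 273 with 3. At the nIPC gate, cells with 2 genes (179, 116 and 152) stood next to cells with 1 gene (153, 59 and 62). At the *Eomes* gate, members with a single UMI made up 34.0%, 19.8% and 21.8%, next to 307, 97 and 174 cells that passed both other gates with 0 *Eomes* UMIs.

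Members were deep cells in every library. Their median was 5368 UMIs [5032 to 5693] in the wild-type, 6335 [6082 to 6602] in the nestin-Cre and 6314 [6081 to 6486] in the Emx1-Cre library, with 2334, 2668 and 2657 genes. Non-dividing *Eomes* cells, which passed the same *Eomes* and nIPC gates with none of the 8 cycle genes, had medians of 3656, 4105 and 4134 UMIs. The median of members thus exceeded that of the non-dividing cells in each library. Mitochondrial transcripts were 2.75%, 2.77% and 2.63% of a member's UMIs at the median. Doublets were kept; the 6% of cells with the highest Scrublet scores in each library held 25, 40 and 94 members, or 4.74%, 9.76% and 15.1%. Members above 20000 UMIs numbered 1, 0 and 7.

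The label was checked on genes that the gate did not use. *Neurod1*, a proneural factor of the granule lineage, was at 345 CPM [324 to 367] in wild-type members, 521 [494 to 549] in nestin-Cre members and 493 [473 to 514] in Emx1-Cre members. *Sox2*, a factor of stem cells and early progenitors, was at 376, 476 and 469 CPM, and *Prox1*, which marks the granule lineage, at 193, 310.4 and 249. *Sox2* was detected in 77.6%, 87.6% and 87.5% of members (median 5368, 6335 and 6314 UMIs), against 26.4%, 11.5% and 18.2% of cells with microglia markers, which should lack it (median 2368, 3289 and 3388 UMIs). Thinned to 1500 UMIs, with 19, 1 and 2 members left out, these shares were 43.9%, 50.6% and 47.9% in members and 17.5%, 5.71% and 11.3% in the microglia marker cells. The shares in members exceeded the background in each library, and the background itself was highest in the wild-type library.

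Lists of genes that the gate did not use set the members beside their neighbours. Per 10000 UMIs, 29 stem cell genes gave 146 UMIs in wild-type members, 170.1 in non-dividing *Eomes* cells and 266 in dividing RGL-like cells (no *Eomes*, fewer than 2 nIPC genes, at least 3 cycle genes and at least 3 of 6 RGL genes). The last class, also chosen by detected genes, was not alike in depth across libraries: 729, 211 and 292 cells with medians of 2257, 5379 and 5360 UMIs. Neuronal genes (30) gave 141, 274 and 75.0 UMIs in the same order. Wild-type members thus held the lowest stem cell level of the 3 classes and a neuronal level between the others. The RGL-like class was chosen for RGL genes and against nIPC genes, so its stem cell and neuronal levels follow in part from that choice. Only the genes that chose the members were taken out of the lists. The mitosis list without its gate genes gave 69.1 UMIs in members, 2.66 in non-dividing *Eomes* cells and 48.6 in dividing RGL-like cells, and the replication list gave 38.7, 13.7 and 28.3. The same order for the neuronal and mitosis lists was seen in both mutant libraries.

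**Figure D2:**
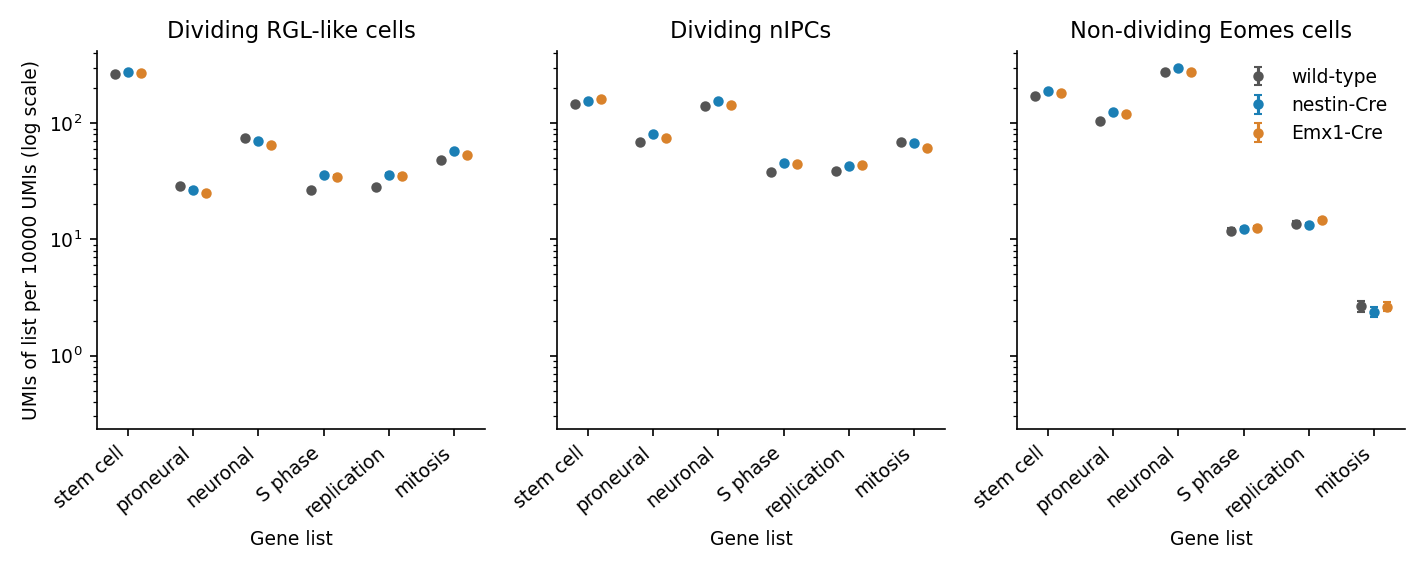
UMIs of 6 gene lists per 10000 UMIs (log scale), gate genes left out, in dividing RGL-like cells, dividing nIPCs and non-dividing *Eomes* cells of each library; bars are 95% Poisson intervals that cover counting error only. Dividing nIPCs hold the highest mitosis level of the 3 classes in every library and a neuronal level between those of the other classes. The classes were chosen by genes of these kinds, so these orders follow in part from the choice.

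*Larp7* encodes the protein that binds and stabilises 7SK RNA, the scaffold that holds the elongation kinase P-TEFb inactive. In members it stood at 105 CPM [93.9 to 118] in the wild-type library, 17.7 [13.1 to 23.5] in the nestin-Cre library and 19.8 [15.9 to 24.4] in the Emx1-Cre library, log2 ratios of -2.57 [-3.04 to -2.13] and -2.41 [-2.77 to -2.06] to wild-type. Tags of a 3′ library can lie outside the deleted exon, so these values are levels of *Larp7* transcript and do not check the deletion itself. Wild-type members had more of it than wild-type non-dividing *Eomes* cells (43.5 CPM) and dividing RGL-like cells (78.1 CPM). Microglia marker cells without *Eomes*, a lineage in which neither driver is known to act, had 53.1, 35.7 and 41.9 CPM, and endothelial marker cells 46.5, 59.5 and 41.6 CPM. The mutant levels were therefore far below wild-type in members and nearer to it in microglia marker cells. Of members, 42.1%, 10.7% and 12.0% held a *Larp7* UMI. Among microglia marker cells chosen with *Eomes* not used, at the depths given above, the shares were 13.5%, 11.1% and 13.2%. Among those without *Eomes* they were 12.2%, 10.7% and 14.0%. Thinned, members were at 16.9%, 1.71% and 2.73%, and microglia marker cells chosen with *Eomes* not used at 7.93%, 4.57% and 5.26%.

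Of 8690 genes with at least 100 UMIs summed over members of the 3 libraries, 1201 (13.8%) differed by at least 1.5-fold between *Larp7* f/f;nestin-Cre and wild-type members. Higher in the nestin-Cre library were 694 genes (7.99%) and lower were 507 (5.83%). The Emx1-Cre library differed from wild-type in 767 genes (8.83%), with 619 higher (7.12%) and 148 lower (1.70%). Higher genes thus outnumbered lower ones in both comparisons, by a wider margin in the Emx1-Cre library, where 80.7% of the genes over the limit were higher; with TMM scaling that share was 69.9%, with 1 UMI in each library compared in place of 100 in sum 63.5%, and with cells thinned before the gate 67.5%. The limit on summed UMIs lets a low gene enter through the library where it is high, and the Emx1-Cre library holds the most member UMIs (2972782, 2709659 and 4488533). For the nestin-Cre library the share was 57.8%, and 50.3% with TMM scaling. The median log2 ratio of all 8690 genes was 0.04 and 0.08, and 0.00 and 0.02 with TMM scaling. Of all 8690 genes, 54.5% had any higher value in the nestin-Cre and 60.3% in the Emx1-Cre library, and list counts below are to be read beside these shares. At 2-fold, 109 genes were higher and 132 lower in the nestin-Cre library, and 96 and 19 in the Emx1-Cre library. Genes past 1.5-fold in both mutant libraries numbered 330 on the higher side and 79 on the lower side; both counts share the wild-type library.

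Genes of 7SK and P-TEFb came first, since *Larp7* belongs to this complex. *Hexim1*, which encodes the inhibitor that 7SK RNA brings to P-TEFb, was at 23.2 CPM [18.1 to 29.4] in wild-type, 52.0 [43.8 to 61.4] in nestin-Cre and 44.8 [38.8 to 51.4] in Emx1-Cre members, log2 ratios of 1.16 [0.74 to 1.60] and 0.95 [0.55 to 1.36]. It was higher in both mutant libraries and, apart from *Larp7*, the only gene of the list past 1.5-fold in both. Non-dividing *Eomes* cells had 17.4, 52.6 and 58.8 CPM of *Hexim1*, dividing RGL-like cells 42.6, 80.7 and 56.0, and microglia marker cells 34.8, 57.4 and 48.0. The same direction was thus found in each of these classes, microglia marker cells included. Of 17 genes of the list in the files, 14 had 100 UMIs; 8 were higher and 6 lower in the nestin-Cre library and 9 and 5 in the Emx1-Cre library, with medians of 0.07 and 0.04. These shares (57.1% and 64.3%) lie near those of all genes, and the medians cross 0 under other settings: -0.01 in the nestin-Cre library with at least 4 cycle genes, and -0.01 with at least 3 nIPC genes and -0.02 with TMM scaling in the Emx1-Cre library. *Aff4*, a scaffold of the super elongation complex, was at 90.8, 135 and 127 CPM (log2 0.58 and 0.49), *Nelfe*, a subunit of the negative elongation factor, at 81.4, 59.4 and 60.8 (-0.45 and -0.42), and *Ccnt1*, the main cyclin of P-TEFb, at 84.4, 88.6 and 87.6. Subunits and regulators of P-TEFb therefore lay on both sides of wild-type, with *Ccnt1* close to level. The gene of 7SK RNA itself is not in the feature list.

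Replication and S-phase genes were higher in the members of both mutant libraries. Of the 42 S-phase genes of Seurat's list that are not gate genes, 35 were higher and 7 lower in the nestin-Cre library and 36 and 6 in the Emx1-Cre library (83.3% and 85.7% higher, beside 54.5% and 60.3% of all genes), with median log2 ratios of 0.29 and 0.28 beside 0.04 and 0.08 for all genes; no alternative changed these signs. These genes gave 37.9 UMIs per 10000 [37.2 to 38.6] in wild-type members, 45.7 [44.9 to 46.5] in nestin-Cre members and 44.2 [43.6 to 44.8] in Emx1-Cre members. Dividing RGL-like cells showed the same direction (26.7, 35.7 and 34.7), at the unequal depths given above, so this is no clean comparison with members. Microglia marker cells held 18.1, 17.3 and 18.1. In the replication list without *Rrm2*, 35 of 49 genes were higher in the nestin-Cre and 35, not all of them the same, in the Emx1-Cre library, 71.4% in each beside the 54.5% and 60.3% of all genes (medians 0.15 and 0.19).

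Past 1.5-fold in both mutant libraries were 4 of these 49 replication genes, beside 330 of all 8690 genes. *Cdc6*, which loads the replicative helicase, was at 12.1 CPM [8.48 to 16.8] in wild-type, 28.8 [22.8 to 35.9] in nestin-Cre and 26.5 [22.0 to 31.7] in Emx1-Cre members (log2 1.25 and 1.13). *Cdt1*, its partner in licensing, was at 28.6, 45.0 and 50.4 CPM (0.66 and 0.82), and *Ticrr*, needed for origin firing, at 16.5, 35.8 and 28.1 (1.12 and 0.77). *Clspn*, the fork protein that mediates the checkpoint, was at 104 [93.0 to 117], 168 [153 to 184] and 160.4 [149 to 173] CPM (0.69 and 0.62). All 4 were higher in both mutant libraries. The most abundant replication genes differed less: *Mcm6*, a helicase subunit, was at 189, 241 and 226 CPM, *Pcna*, the sliding clamp, at 151, 199 and 190.0, and *Slbp*, which binds histone messengers, at 154, 189 and 207. *Tyms*, which makes thymidylate, went the other way (177, 147 and 154 CPM), and *Mcm7* was at 192, 171 and 199.

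Of 38 regulators of the cycle measured, 25 were higher in the nestin-Cre and 29 in the Emx1-Cre library, 65.8% and 76.3% beside the 54.5% and 60.3% of all genes (medians 0.18 and 0.13; the first was -0.12 when cells were thinned before the gate). *Ccne2*, a cyclin of the entry into S phase, was at 11.4 CPM [7.92 to 16.0] in wild-type, 18.8 [14.0 to 24.7] in nestin-Cre and 19.6 [15.7 to 24.2] in Emx1-Cre members. *E2f3*, a transcription factor of S-phase genes, was at 19.8, 32.8 and 31.2 CPM (log2 0.73 and 0.65), and its nestin-Cre ratio was -0.32 when cells were thinned before the gate. *Cdkn1a*, the p21 inhibitor of cyclin-dependent kinases, was at 9.42 [6.26 to 13.6], 15.1 [10.9 to 20.5] and 22.7 [18.5 to 27.6] CPM, with microglia marker cells at 309, 378 and 365. These 3 genes, which act on both sides of the entry into S phase, were the regulators higher by 1.5-fold in both mutant libraries (3 of 38, beside 330 of all 8690 genes), and for *Cdkn1a* the nestin-Cre ratio of 0.68 [-0.04 to 1.43] has an interval that reaches 0. The abundant regulators were closer together: *Ccnd2*, the main D-type cyclin here, was at 1487, 1691 and 1599 CPM, *Cdk4* at 870.2, 847 and 839 and *Cdk6* at 315, 378 and 350.4. *Gadd45g*, a stress and differentiation gene, was lower in the nestin-Cre library alone (325, 209 and 334 CPM), as it was in non-dividing *Eomes* cells (403, 217 and 451).

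Of 41 genes of the mitosis list that are not gate genes, 26 were lower in the nestin-Cre library and 34 in the Emx1-Cre library. Higher were 36.6% and 17.1%, beside 54.5% and 60.3% of all genes. Medians of the 41 genes were -0.09 and -0.13, beside 0.04 and 0.08 for all genes. Of the 47 genes of Seurat's G2/M list that are not gate genes, 23 were lower in the nestin-Cre and 36 in the Emx1-Cre library. Of those 47, 51.1% and 23.4% were higher, the nestin-Cre share lying near that of all genes. The G2/M medians were 0.02 and -0.13, or -0.21 and 0.01 when cells were thinned before the gate. Per 10000 UMIs that list gave 133, 134 and 118, so it did not show the nestin-Cre direction. The Emx1-Cre mitosis median turned sign when cells were thinned before the gate (0.05). It was 0.00 without the highest Scrublet scores and -0.03 with the mean of per-cell CPM, which keeps the same cells. The nestin-Cre mitosis median was -0.22, -0.03 and -0.05 in the same alternatives. Per 10000 UMIs, the 41 mitosis genes gave 69.1 [68.1 to 70.0] in wild-type and 67.5 [66.5 to 68.4] in nestin-Cre members. In Emx1-Cre members they gave 60.7 [59.9 to 61.4]. Microglia marker cells held 18.1, 13.4 and 16.2, also lower in both mutant libraries, and the part of free RNA was not tested. *Ccnb2*, a mitotic cyclin, was at 218 CPM [202 to 235], 132 [118 to 146] and 131 [120.4 to 142] (log2 -0.73 [-0.92 to -0.54] and -0.74 [-0.90 to -0.57]), and it alone in the list passed 1.5-fold in both. *Ccnb1*, the other B-type cyclin, was at 277, 259.8 and 221 CPM, so the B-type cyclins differed in extent. Among the abundant genes of the list, *Tpx2*, a spindle assembly factor, was at 365, 411 and 367 CPM, *Prc1*, which bundles microtubules, at 449, 487 and 406 and *Smc2*, a condensin subunit, at 532, 589.7 and 509. In dividing RGL-like cells the mitosis list was higher in both mutant libraries (48.6, 57.4 and 53.3 per 10000), at the unequal depths given above, so this is no clean contrast with members.

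The gate genes chose the cells, so their values are given as description and support no result. *Cdk1*, the kinase of mitotic entry, was at 355, 243 and 253 CPM, *Birc5*, the survivin of the chromosomal passenger complex, at 445, 302 and 287, and *Ube2c*, a ubiquitin-conjugating enzyme of mitotic exit, at 1040, 810.1 and 667. *Mki67*, the proliferation antigen, was at 538, 768 and 556 CPM, *Top2a*, a topoisomerase, at 843, 1181 and 882, and *Cenpf*, a kinetochore protein, at 1110, 1296 and 1027. The first 3 were lower in both mutant libraries, while *Mki67* and *Top2a* were higher in the nestin-Cre library. *Eomes* was at 438, 541 and 496 CPM, *Neurog2* at 255, 224 and 264, *Insm1* at 379, 332 and 355 and *Mfap4* at 382, 343 and 323.

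**Figure D3:**
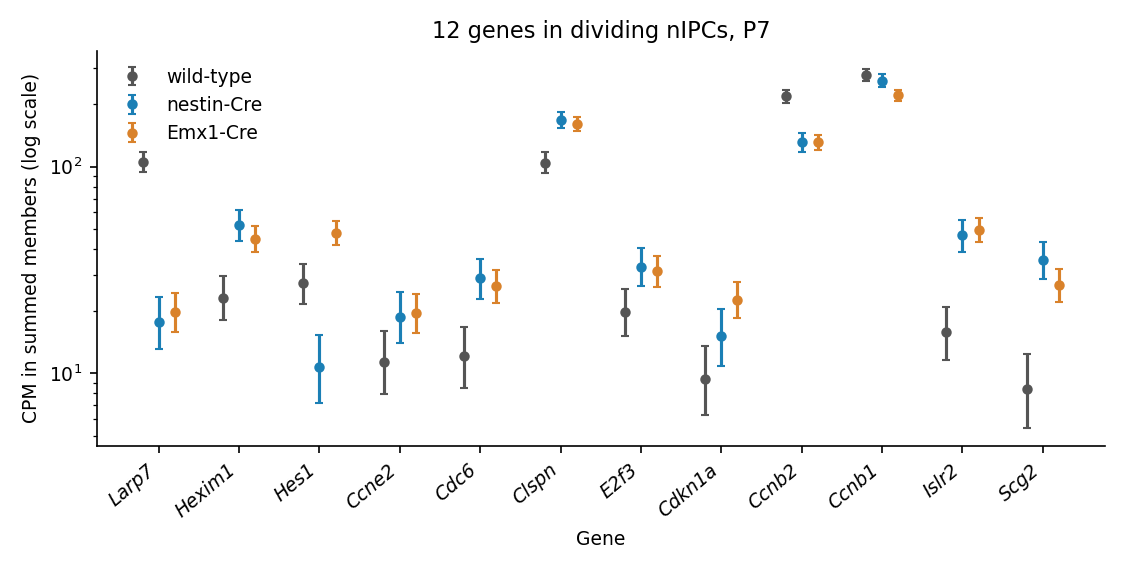
CPM (log scale) of 12 genes in the summed members of each library, with 95% Poisson intervals that cover counting error only. *Larp7* and *Ccnb2* are lower, and *Hexim1*, *Cdc6*, *Clspn*, *Islr2* and *Scg2* higher, in both mutant libraries than in wild-type, while *Hes1* is lower in the nestin-Cre and higher in the Emx1-Cre library.

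Members with few and many cycle genes were compared separately. Among members with 3 to 4 cycle genes (146, 94 and 136 cells), *Ccnb2* was at 86.7 CPM [63.3 to 116], 28.5 [15.2 to 48.8] and 39.8 [27.1 to 56.6]; among those with 7 to 8 (271, 218 and 315 cells), it was at 262, 165 and 169. It was lower in the mutant libraries at both ends. The strata are counts of detected genes and are not matched for depth: the median was 3510, 4433 and 5032 UMIs with 3 to 4 cycle genes and 6588, 7444 and 7484 with 7 to 8, so the part of depth in these values cannot be told apart from that of genotype. The S-phase list stood at 35.4, 43.8 and 41.5 UMIs per 10000 in the former and 37.0, 42.2 and 42.9 in the latter, higher in the mutant libraries at both ends too. The mitosis list was lower with 3 to 4 cycle genes (22.2, 18.8 and 17.5) and with 7 to 8 (88.6, 86.3 and 80.2) but not with 5 to 6 (41.3, 50.7 and 41.8, at medians of 4283, 5800 and 5445 UMIs). These strata describe the members and support no direction by themselves. Thinned to 1500 UMIs, a member held a median of 4, 6 and 6 S-phase UMIs and 17, 18 and 16 of the G2/M list, gate genes left out. Members with more S-phase than G2/M UMIs were 9.45% [7.05 to 12.3] in the wild-type, 13.9% [10.7 to 17.7] in the nestin-Cre and 15.6% [12.8 to 18.7] in the Emx1-Cre library; free RNA enters such counts, and its part was not tested.

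Promoters of both groups were read from RefSeq (GRCm38.p6; 250 bases before to 50 after the start) and searched on both strands for TTTGAA, known as the cell cycle homology region, for CCAAT, and for the E2F core in its forms TTCCCGC or TTCGCGC or TTGCCGC or TTGGCGC. A promoter was found for 40 of 47 mitosis genes and 44 of 53 replication genes. TTTGAA was in 77.5% of the mitosis promoters, 9.09% of the replication promoters, 18.1% of all 27025 promoters and 11.6% of the 7016 promoters found for the 8690 compared genes. CCAAT was in 75.0%, 59.1%, 37.9% and 39.9%. The E2F core was in 6 of the 40 mitosis promoters, 56.8% of the replication promoters, 9.69% of all and 19.6% of those of the compared genes. The lists therefore differ in their promoter letters, which is a description of the lists and shows no factor at work. The 250 bases before the start are shown for *Ccnb2*, lower in both mutant libraries, for the gate gene *Cdk1* as an example of all 3 motifs, and for *Cdc6*, higher in both; capitals mark the motifs. The regions are chr9:70421555-70421804 (minus strand), chr10:69352913-69353162 (minus strand) and chr11:98907901-98908150 (plus strand). The starts are those of RefSeq: by the GENCODE annotation used for gene length, the region of *Cdc6* lies inside the gene and that of *Cdk1* overlaps its 5′ end.
*Ccnb2*: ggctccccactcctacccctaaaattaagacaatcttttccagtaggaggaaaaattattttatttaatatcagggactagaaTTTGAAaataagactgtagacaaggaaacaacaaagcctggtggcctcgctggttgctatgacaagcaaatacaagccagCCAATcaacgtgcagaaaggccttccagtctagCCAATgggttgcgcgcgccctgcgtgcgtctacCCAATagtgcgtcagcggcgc
*Cdk1*: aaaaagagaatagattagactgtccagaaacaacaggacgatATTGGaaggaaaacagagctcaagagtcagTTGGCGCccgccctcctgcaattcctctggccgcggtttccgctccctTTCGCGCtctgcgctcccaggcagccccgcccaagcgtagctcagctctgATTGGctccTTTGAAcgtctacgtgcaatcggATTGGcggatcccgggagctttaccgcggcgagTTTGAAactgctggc
*Cdc6*: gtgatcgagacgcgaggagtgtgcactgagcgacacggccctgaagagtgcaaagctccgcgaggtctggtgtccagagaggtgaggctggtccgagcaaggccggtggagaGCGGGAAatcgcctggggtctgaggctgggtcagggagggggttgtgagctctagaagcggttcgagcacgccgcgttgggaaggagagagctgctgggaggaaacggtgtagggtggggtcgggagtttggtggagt

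Of 14 proneural genes measured that are not gate genes, 11 were higher in each mutant library (78.6%, beside 54.5% and 60.3% of all genes), with medians of 0.31 and 0.22; the second was 0.07 when cells were thinned before the gate and 0.11 without the highest Scrublet scores. Of 29 neuronal genes, 23 were higher in the nestin-Cre library and 19 in the Emx1-Cre library (79.3% and 65.5%, the latter near the 60.3% of all genes), with medians of 0.25 and 0.12; the second was -0.02 without the highest Scrublet scores. Per 10000 UMIs the neuronal list gave 141 [139 to 142] in wild-type, 155 [153 to 156] in nestin-Cre and 144 [143 to 145] in Emx1-Cre members. *Islr2*, a membrane protein of growing axons, was at 15.8 CPM [11.6 to 21.0], 46.5 [38.7 to 55.4] and 49.5 [43.2 to 56.4] (log2 1.56 and 1.65), and *Ank3*, the ankyrin of the axon initial segment, at 30.9, 63.8 and 57.9 (1.04 and 0.90). Both passed 1.5-fold in both mutant libraries, and *Islr2* was also higher in microglia marker cells (22.6, 59.6 and 44.5 CPM). None of the abundant neuronal genes passed 1.5-fold in both: *Igfbpl1*, a neuroblast marker, was at 1795, 1632 and 1479 CPM, *Tubb2b*, a tubulin, at 1560, 1334 and 1559, and *Tac2*, a neuropeptide gene of young granule cells, at 497, 648 and 471. *Neurod1* and *Prox1* had log2 ratios of 0.60 and 0.68 in the nestin-Cre library and 0.52 and 0.36 in the Emx1-Cre library, and in non-dividing *Eomes* cells *Neurod1* was at 982, 1572 and 1347 CPM. *Sox11*, a factor of neuronal differentiation, was at 2282, 3028 and 2682 CPM and *Sox4*, its relative, at 2623, 2734 and 2456.

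Counts of higher stem cell genes differed between the mutant libraries, which was not tested. Of 29, 16 were higher in the nestin-Cre and 25 in the Emx1-Cre library (55.2% and 86.2%, beside 54.5% and 60.3% of all genes). Medians were 0.03 and 0.22, but 0.18 in each when cells were thinned before the gate. The nestin-Cre median was below 0 with the mean of per-cell CPM and without the highest Scrublet scores. Per 10000 UMIs the list gave 146 in wild-type, 156 in nestin-Cre and 163 in Emx1-Cre members. Microglia marker cells held 114, 63.1 and 86.9, and wild-type non-dividing *Eomes* cells held 170.1, so the sum is not particular to stem cells. In CPM the list summed to 14601, 15566 and 16304 in members, with *Zbtb20* and *Nfib* large parts of it. In the nestin-Cre library the rise of these genes together exceeded that of the whole list. *Sox2* had ratios of 0.34 and 0.32. *Zbtb20*, a factor of hippocampal identity, was at 3080, 4033 and 3669 CPM, *Nfib*, a factor of stem cell and glial programmes, at 3045, 3896 and 3517, and *Lhx2*, a factor of cortical patterning, at 809, 1046 and 874. These transcription factors were higher in both mutant libraries. *Fabp7*, the brain lipid-binding protein of radial glia, was at 1105 [1068 to 1144], 559.8 [532 to 589] and 1116 [1085 to 1147] CPM, and *Dbi*, another lipid-binding protein, at 1725, 1235 and 1674, so both were lowest in the nestin-Cre library. In microglia marker cells *Fabp7* was at 2174, 739.9 and 1443 CPM and *Dbi* at 2082, 909.9 and 1452, lower in both mutant libraries and lowest in the nestin-Cre library. The part of free RNA in these values was not tested.

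Notch signalling, by which progenitors hold their neighbours undifferentiated, was read from 13 measured genes that are not gate genes. Of these, 9 were lower in the nestin-Cre library (median -0.29) and 9 higher in the Emx1-Cre library (median 0.13). Shares of higher genes were 30.8% and 69.2%, beside 54.5% and 60.3% of all genes, so the Emx1-Cre share lay near that of all genes. Neither median was stable in size. The first was -0.03 with 200 or more UMIs per gene, -0.07 with 50 or more and -0.09 with at least 3 nIPC genes. It was also -0.12 without members that hold genes of other cell types and -0.04 with 1 UMI in each library compared. The second was 0.02 when cells were thinned before the gate and 0.51 with 1 UMI in each library compared. *Hes5*, a Notch target and repressor of proneural genes, was at 312 CPM [292 to 333] in wild-type, 96.0 [84.6 to 108] in nestin-Cre and 227 [213 to 241] in Emx1-Cre members. Microglia marker cells carried 224, 81.1 and 148 CPM of *Hes5*, so the order of the libraries was the same in cells that should lack it. *Hes1*, the related target, was at 27.2 [21.6 to 33.9], 10.7 [7.17 to 15.4] and 47.9 [41.7 to 54.7] CPM, lower in the nestin-Cre and higher in the Emx1-Cre library. Endothelial genes in members, given below, had the same order of libraries (156, 7.38 and 318 CPM in sum). The ligand *Dll1* was at 27.2, 31.7 and 40.1 CPM, the receptor *Notch1* at 138, 135 and 151 and the effector *Rbpj* at 81.4, 94.8 and 80.2. *Hes6*, which counters *Hes1*, was at 255, 202 and 216 CPM.

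The 10 genes highest above wild-type were ranked by the smaller of both ratios. The limit of 100 UMIs was set on the sum over libraries, so genes that are low in wild-type entered through the mutant libraries in which they are high. Most of the 10 would be under the limit at their wild-type level (14 wild-type UMIs for *L1cam* and for *Mn1*). *Scg2*, a granin of secretory vesicles, was at 8.41 CPM [5.44 to 12.4] in wild-type, 35.4 [28.7 to 43.3] in nestin-Cre and 26.7 [22.2 to 32.0] in Emx1-Cre members (log2 2.07 and 1.67). *Utp14b*, a ribosome biogenesis gene, was the most abundant of the 10, at 25.6 [20.1 to 32.0], 75.3 [65.3 to 86.4] and 64.2 [57.0 to 72.0] CPM (1.56 and 1.33). *L1cam*, a neuronal adhesion molecule, was at 4.71, 15.1 and 11.6 CPM, and *Mn1*, a transcriptional coregulator, at 4.71, 22.9 and 14.0. *Islr2* was also among the 10 and was the only one of them in the neuronal list, so no theme is read from the 10. *Scg2*, *Islr2* and *L1cam* were each higher in non-dividing *Eomes* cells than in members of the same library. *Scg2* was there at 44.3, 91.9 and 71.8 CPM and *L1cam* at 36.4, 58.7 and 52.8. The others were *Jade3*, part of a histone acetyltransferase complex (5.38, 20.3 and 16.5 CPM), *Slfn9* (8.41, 24.4 and 29.9), *A830018L16Rik* (5.05, 14.8 and 14.3), *Tm9sf1* (6.05, 23.6 and 16.0) and *Ccpg1*, a receptor of endoplasmic reticulum autophagy (6.05, 15.1 and 16.0). *Slfn9* was lower outside division: non-dividing *Eomes* cells had 1.58, 0.605 and 3.81 CPM of it and dividing RGL-like cells 11.2, 20.2 and 21.7.

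The 10 genes furthest below wild-type, ranked in the same manner, began with *Larp7*. The chemokine genes *Ccl3* (34.3, 10.7 and 10.0 CPM) and *Ccl4* (46.8, 5.17 and 16.0 CPM) are made by microglia, and microglia marker cells held 2261, 1808 and 2303 CPM of *Ccl3* and 3256, 2182 and 3602 CPM of *Ccl4*. Their levels in members were thus small beside their source. *Hist1h2bc*, a histone gene with polyadenylated transcripts, was at 173 [159 to 189], 63.8 [54.7 to 74.1] and 75.1 [67.3 to 83.5] CPM, and it was lower in non-dividing *Eomes* cells too (146, 45.4 and 38.6). *Trappc6a*, a subunit of a vesicle tethering complex, was at 38.7, 14.8 and 18.7 CPM and *B3galt6*, an enzyme of proteoglycan synthesis, at 25.2, 9.60 and 12.5. *Trappc6a* was level in microglia marker cells (43.3, 47.5 and 46.3 CPM) and lower in non-dividing *Eomes* cells (35.6, 9.07 and 9.25). The rest were *Gm26604* (30.3, 13.3 and 14.0 CPM), *Zic4* (15.5, 7.01 and 7.80), the helicase gene *Ddx11* (20.9, 11.1 and 10.9) and *3110009E18Rik* (18.8, 8.49 and 10.0).

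The ratio to wild-type varied with gene length. Lengths from GENCODE vM21 (GRCm38) were matched on Ensembl identifiers for 8679 of the 8690 genes (99.9%). In the shortest quartile of genes (median 5.54 kb) the median log2 ratio of members was -0.12 in the nestin-Cre and -0.04 in the Emx1-Cre library, and in the longest (median 105 kb) it was 0.22 and 0.21. The medians of the 4 quartiles followed the order of length in both libraries. In the longest quartile 309 genes were higher and 66 lower by 1.5-fold in the nestin-Cre library, and 235 and 11 in the Emx1-Cre library; in the shortest, 84 were higher and 202 lower, and 118 and 69. Leaving out ribosomal protein genes moved the shortest quartile to -0.11 and -0.03 only.

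Quartiles of transcript length gave a similar order, from -0.14 and -0.05 in the shortest to 0.25 and 0.21 in the longest, so length of the gene and of its transcript cannot be told apart here. Non-dividing *Eomes* cells had -0.15 and -0.05 in the shortest and 0.25 and 0.18 in the longest quartile of gene length, and dividing RGL-like cells -0.09 and -0.03 and 0.23 and 0.14. The gradient was thus not particular to dividing cells. In microglia marker cells it ran from -0.15 to 0.11 and from -0.07 to 0.10. A gradient in the same direction, smaller than that of members, was therefore present in a lineage in which neither driver is known to act, and what all cells of a library share (depth, handling, sequencing) was not tested as its source. The signs of the shortest and longest quartiles in members held in all 15 alternatives.

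**Figure D4:**
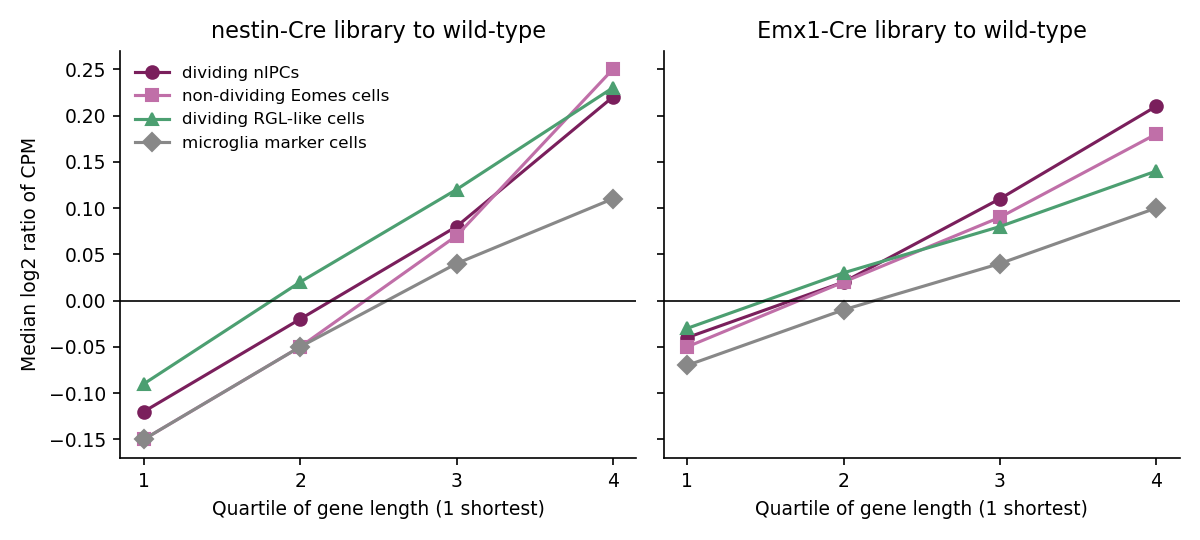
Median log2 ratio of CPM to wild-type (vertical axis) by quartile of gene length (horizontal axis) in 4 classes of cells of each mutant library. All lines are higher for longer genes, those of microglia marker cells included; the second quartile of members in the Emx1-Cre library (0.02) is below 0 with TMM scaling.

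Ribosomal protein genes, which are short, were lower by a small amount almost throughout: 78 of 80 in the nestin-Cre library (median -0.16) and 74 of 80 in the Emx1-Cre library (-0.11), and 0 of them by 1.5-fold. They took 1729 of 10000 UMIs in wild-type members, 1557 in nestin-Cre and 1606 in Emx1-Cre members. Dividing RGL-like cells had 1643, 1390 and 1474, but microglia marker cells 1888, 1992 and 1912, so the direction in microglia marker cells was the opposite. Glycolysis genes (15 measured) had medians of -0.24 and 0.21, immediate early genes (19) -0.21 and 0.22, and p53 targets (14) 0.15 and 0.18. The opposite signs of the first pair of lists did not hold in size: the Emx1-Cre medians were 0.05 (glycolysis) and 0.01 (immediate early) without the highest Scrublet scores and 0.06 and 0.00 when cells were thinned before the gate, where the nestin-Cre glycolysis median was -0.01. Of the 14 p53 targets, 57.1% and 64.3% were higher, near the 54.5% and 60.3% of all genes. All 22 p53 targets summed to 8.96, 8.71 and 9.82 per 10000 UMIs, so the nestin-Cre sum was lower although its median was above 0. Histone genes (45 measured) had medians of 0.00 and -0.04, and all 82 histone genes in the files summed to 196, 199 and 176 per 10000 UMIs.

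Transcripts of other cell types were found in members and differed between libraries. The endothelial list (8 genes, all detected) summed to 156 CPM [142 to 171] in wild-type, 7.38 [4.51 to 11.4] in nestin-Cre and 318 [302 to 335] in Emx1-Cre members, with the tight junction gene *Cldn5* most abundant (83.1, 0.738 and 167 CPM). Members with at least 3 endothelial genes numbered 4, 0 and 28, and held 232 of the 247 wild-type *Cldn5* UMIs and 744 of the 749 in the Emx1-Cre library. Few cells thus carried nearly all of this signal. The mural list (10 genes, all detected) summed to 90.5, 12.9 and 168 CPM, led by the pericyte gene *Rgs5* (53.1, 8.86 and 94.0 CPM), and the erythroid list (5 genes, all detected) to 520.4, 38.0 and 588, led by the globin gene *Hbb-bs* (263, 24.0 and 273 CPM). The microglia list (10 genes, all detected) gave 217, 231 and 106 CPM, led by the complement gene *C1qb* (49.4, 47.2 and 16.3), against 1152, 1388 and 756 in all passing cells. Members with at least 3 genes of the endothelial, mural, microglia, macrophage, erythroid or OPC (oligodendrocyte precursor) list were 9.68%, 4.15% and 8.49%. Without them, an alternative chosen after the data were seen, the genes over 1.5-fold were 680 higher and 395 lower in the nestin-Cre and 559 and 146 in the Emx1-Cre library.

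The remaining lists were lower or nearer to the lineage. Astrocyte genes (8, all detected), some of which RGLs also express, summed to 492, 449 and 573 CPM, led by the glutamate transporter *Slc1a2* (318, 329 and 393). OPC genes (8, all detected) summed to 118, 56.5 and 106 CPM, led by *Olig1* (63.9, 19.9 and 43.9), and macrophage genes (5, all detected) to 13.5, 10.7 and 3.79, led by *Pf4* (6.05, 5.54 and 2.01). Each was below its level in all passing cells of the same library, which for astrocyte genes was 1619, 1550 and 1704 CPM. Granule neuron genes (9, with *Calb1* at 0) summed to 427, 606 and 506 CPM, led by *Prox1*, and pyramidal neuron genes (7, all detected) to 153, 150.2 and 147, led by *Neurod6* (44.7, 45.4 and 51.2). Interneuron genes (9, with *Sst* and *Lhx6* at 0) summed to 4.37, 28.8 and 19.4 CPM, led by *Dlx1* (1.68, 11.8 and 8.02), Cajal-Retzius genes (6) to 4.71, 12.2 and 34.3, led by *Reln* (3.70, 8.49 and 17.8), and ependymal genes (4) to 5.05, 2.95 and 13.8, led by *Rarres2* (3.03, 0.738 and 4.90). The part of these transcripts in the differences between members was not tested beyond the alternative above.

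Members of the mutant libraries were also compared with each other. Of the 8690 genes, 514 (5.91%) differed by 1.5-fold, 92 (1.06%) higher in the nestin-Cre and 422 (4.86%) higher in the Emx1-Cre library, that is lower in the nestin-Cre library. The genes lowest in the nestin-Cre library, ranked with sums of 0 set to 3 UMIs, were *Cldn5*, *Vtn* (17.2, 0.369 and 38.5 CPM), *Kdr* (19.8, 0.369 and 33.4), *Higd1b* (23.2, 0.369 and 31.9) and *Slc38a5* (22.5, 0.369 and 30.3). *Kdr* is a receptor of endothelial cells and *Vtn* and *Higd1b* are pericyte genes. Highest in the nestin-Cre library were the microglia genes *Fcrls* (16.1, 15.9 and 4.90 CPM), *C1qb*, *Fcer1g* (16.8, 21.0 and 7.57), *C1qc* (33.0, 42.4 and 15.6) and *Cx3cr1* (13.8, 15.1 and 6.24). Both ends of this comparison were therefore genes of vessels and microglia, and none of the 10 belongs to the nIPC, cell cycle or neuronal lists.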

How the data were processed

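The counts are UMI counts per cell and gene, deposited by the authors as filtered matrices; the file headers name Cell Ranger 4.0.0. Nothing was realigned. Cells with more than 500 genes and under 15% mitochondrial UMIs were kept, members were chosen by detected genes, and their UMIs were summed per library and divided by the library's total over members (CPM). Genes with 100 or more summed UMIs were compared. Named genes were the gate genes, the 8 most abundant of each main list and its genes past 1.5-fold in both mutant libraries, the most abundant gene of each other cell type, the 10 furthest above and below wild-type, and 5 in each direction between the mutant libraries, ranked with a floor of 3 UMIs. The members and lists were chosen with earlier results of these data known. Microglia marker cells (at least 5 microglia genes) and endothelial marker cells (at least 4 endothelial genes) were defined after the data were seen. The code was tested on simulated data. Python 3.11.15, scanpy 1.11.5, numpy 2.4.6, scipy 1.17.1, pandas 2.3.3, R 4.3.3 and edgeR 4.0.16 were used. A gene that the rule names is withheld and is not reported here.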

Additional observations from a re-analysis of the deposited data

Results flagged for a closer look

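These ratios to wild-type pass the fold limit in opposite directions in the mutant libraries, or do so for a summed list. *Hes1* had log2 ratios of -1.35 in the nestin-Cre and 0.81 in the Emx1-Cre library, and the difference was not tested. The endothelial list in members had the same order of libraries (156, 7.38 and 318 CPM). Both signs of *Hes1* held without members that hold genes of other cell types, and the part of such transcripts was not tested further. *Cldn5* had -6.81 and 1.01, *Vtn* -5.54 and 1.17, *Kdr* -5.75 and 0.75 and *Rgs5* -2.59 and 0.82, and these differences were not tested. In nestin-Cre members *Cldn5* rests on 2 UMIs and *Vtn* and *Kdr* on 1 each. Without members that hold genes of other cell types the Emx1-Cre ratios were -2.38 for *Cldn5*, -0.16 for *Vtn* and -1.57 for *Kdr*, and with cells thinned before the gate -0.31 for *Vtn* and -1.73 for *Rgs5*. Summed endothelial genes had -4.40 and 1.03, summed mural genes -2.81 and 0.89 and summed ependymal genes -0.78 and 1.45; the difference was not tested for any of them.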

How the results depend on the processing

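The analysis was repeated under 15 alternatives, of which 2 (members with genes of other cell types left out, and members above 20000 UMIs left out) were chosen after seeing the data. Of 528 recomputed main values, 454 were the same, 74 moved and 0 turned sign past the limit. Only the *Larp7* ratios among them could be recorded as turned, so this 0 says nothing of the lists. Some list medians did turn sign. With thinned cells these included proneural (0.24 to -0.20) and cycle regulators (0.18 to -0.12) in the nestin-Cre library and Notch (0.13 to -0.05) in the Emx1-Cre library. The Emx1-Cre neuronal median went from 0.12 to -0.02 without the highest Scrublet scores. Of 1098 recomputed values of named genes over the fold limit, 1088 kept their sign and 48 were under the limit. The values that moved are given by alternative, wild-type, nestin-Cre, Emx1-Cre in that order where a value belongs to a library; the cause was not tested for any. List medians here include the gate genes a list holds; without them, a count chosen after seeing the data and used in the report, the proneural medians were 0.29 and 0.07, the Notch medians -0.33 and 0.02 and the mitosis medians -0.22 and 0.05 with thinned cells, in the nestin-Cre and Emx1-Cre library.

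With every cell thinned to 1500 UMIs before the gate, members were 1.63%, 1.41% and 1.76% of cells, with 4751 UMIs per member in the wild-type and 5619 in the Emx1-Cre library. Genes over the limit were 193 higher and 117 lower in the nestin-Cre and 141 and 68 in the Emx1-Cre library. *Larp7* had -3.23 in the nestin-Cre library. List medians in the nestin-Cre library were -0.20 (proneural), -0.42 (Notch), -0.25 (mitosis), -0.12 (cycle regulators), -0.21 (G2/M) and -0.01 (glycolysis). In the Emx1-Cre library they were -0.05 (Notch), -0.01 (mitosis), 0.04 (cycle regulators), -0.01 (G2/M), 0.00 (immediate early) and 0.06 (glycolysis). Signs turned for *E2f3* in the nestin-Cre library (-0.32) and for *Vtn* (-0.31), *Rgs5* (-1.73) and *Reln* (-1.90) in the Emx1-Cre library.

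With at least 4 cycle genes, members were 4.10%, 5.30% and 8.48%, with 5742 UMIs in the wild-type and 6614 in the nestin-Cre library. With at least 3 nIPC genes they were 3.16%, 4.40% and 7.23%, with 5902, 6759 and 6580 UMIs, and the mitosis median of the nestin-Cre library was -0.16. With more than 200 genes per cell, members were 4.13% in the wild-type library, and with more than 1000 they were 8.65%, 6.97% and 10.3%.

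Without the highest Scrublet scores, Emx1-Cre members were 8.63% with 5952 UMIs, and their list medians were 0.05 (glycolysis), 0.01 (immediate early), -0.02 (mitosis), -0.02 (neuronal), -0.09 (ribosomal protein), 0.00 (G2/M) and 0.13 (stem cell). The immediate early median of the nestin-Cre library was -0.40.

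With 50 or more UMIs per gene, 773 genes were lower in the nestin-Cre library, and 1017 were higher and 264 lower in the Emx1-Cre library. With 200 or more, 407 were higher and 255 lower, and 301 and 77. With 1 UMI in each library compared, 2170 were higher and 1653 lower, and 2417 and 1390, with a Notch median of 0.47 in the Emx1-Cre library.

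With TMM scaling, medians were -0.12 (mitosis) and -0.20 (ribosomal protein) in the nestin-Cre library, and 0.07 (cycle regulators), -0.17 (ribosomal protein) and 0.16 (stem cell) in the Emx1-Cre library, where 69.9% of genes over the limit were higher in place of 80.7%. With mitochondrial and ribosomal protein genes left out of the total, the ribosomal protein median of the nestin-Cre library was -0.19. With the mean of per-cell CPM it was -0.14, and the Emx1-Cre medians were -0.04 (mitosis) and -0.02 (G2/M).

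Without members that hold genes of other cell types, members were 4.33% in the wild-type and 8.74% in the Emx1-Cre library, the mitosis median was -0.14 in the nestin-Cre library and the proneural median 0.24 in the Emx1-Cre library. Signs turned for *Slc38a5* (0.02) and *Rarres2* (0.02) in the nestin-Cre and for *Cldn5* (-2.38), *Vtn* (-0.16) and *Kdr* (-1.57) in the Emx1-Cre library. Without members above 20000 UMIs, the ribosomal protein median of the nestin-Cre library was -0.14 and *Rarres2* turned to -0.29 in the Emx1-Cre library.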

Other observations

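Immediate early genes, which neurons and glia switch on within minutes of a stimulus or of tissue handling, took 41.5 of 10000 UMIs in wild-type, 35.0 in nestin-Cre and 45.1 in Emx1-Cre members. Non-dividing *Eomes* cells had the same order (45.7, 35.1 and 47.3). Dividing RGL-like cells held 62.8, 81.6 and 77.3 and microglia marker cells 103, 116 and 105. The nestin-Cre library was thus lowest in both classes of *Eomes* cells and highest in the other 2 classes. Of 4 sex-linked genes measured in members, 2 were higher and 2 lower by 1.5-fold in the Emx1-Cre library and 0 in the nestin-Cre library; the sexes of the pooled littermates were not given.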
